A study of Oryctolagus cuniculus with 12 samples.

Results

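The cytosolic ribosomal proteins are the protein components of the ribosome outside the mitochondria. Genes were taken as members where the symbol given by the array's gene name, accessions or description began with RPL or RPS and a digit, or with RPLP, with the kinases RPS6K and the mitochondrial MRPL and MRPS genes left out. A member also needed a probe that was well above background throughout some group, on each of its 3 arrays. This gave 32 genes on 107 probes, among 7371 named genes that could be tested and 43623 probes on the array. All 107 probes were above background on all 12 arrays, so no member passed the filter through 1 group alone.

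RNA came from the rabbit basilar artery, the vessel along the brain stem, on 12 single-colour Agilent arrays with 3 arrays in each of 4 groups. The control group is labelled as normal artery. The other groups were taken 3, 5 and 7 days after experimental subarachnoid hemorrhage (SAH), a bleed into the fluid space around the brain, and the study asked how gene expression in the artery changes over these days. The labels do not say how the bleed was made, whether controls had a sham procedure, or whether each sample of a group is another animal, so the p-values measure the spread between these samples only. The arrays lay on 3 slides, numbered here by replicate, each with 1 array from every group, and a group had the same place on each slide, so the place on the slide and the group cannot be told apart.

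A ribosome has a large and a small subunit, each built of ribosomal RNA and many proteins that are made in near-equal amounts. The mRNAs of these proteins are among the most abundant in most cells and often carry a terminal oligopyrimidine tract, through which growth signalling sets their translation more than their amount. Some members have a paralog, a second gene for a similar protein, and the vertebrate genome holds many processed copies of ribosomal protein mRNAs, so a probe can also bind RNA from such a copy.

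The 32 genes comprised 17 of the large subunit, 10 of the small subunit, the stalk protein RPLP1 and the paralogs RPL7L1, RPL22L1, RPL26L1 and RPS27L. The large-subunit genes were RPL4, RPL7, RPL7A, RPL10, RPL12, RPL14, RPL15, RPL18, RPL23, RPL24, RPL26, RPL27A, RPL30, RPL31, RPL36A, RPL37 and RPL37A. The small-subunit genes included RPS7, RPS9, RPS12, RPS13, RPS16, RPS18, RPS20 and RPS25. RPLP0, RPLP2, RPL5, RPL11, RPS6, RPL3, RPL13A, RPL22, RPL38, RPS3, RPS4X, RPS14, RPS19, RPL39, RPS27 and the paralogs RPL3L, RPL10L, RPL36AL, RPL39L and RPS4Y1 were not analysed here. 15 genes had 1 probe and 17 had several, up to 10. RPL7 was named through a gene that the array describes as RPL7-like, and RPL23 through accessions that the array describes by the older name L17, so these assignments are less direct than the rest.

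The probes are 60 bases long, and those below are shown because the results turn on them. The probe of RPLP1, a protein of the stalk to which elongation factors bind, ran to the end of the coding sequence, with the stop codon in capitals. RPL4, a protein of the large subunit, was below every control on days 5 and 7.

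RPLP1: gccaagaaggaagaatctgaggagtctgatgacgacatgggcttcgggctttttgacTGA
RPL4: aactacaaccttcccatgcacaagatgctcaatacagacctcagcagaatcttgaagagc

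RPS9, a small-subunit protein, had 2 probes that are exact reverse complements of each other, so that they read opposite strands of the same 60 bases. In the first the leading 12 bases are in capitals, and in the second the 12 bases that pair with them.

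RPS9 first probe: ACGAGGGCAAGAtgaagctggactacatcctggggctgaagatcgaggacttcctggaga
RPS9 second probe: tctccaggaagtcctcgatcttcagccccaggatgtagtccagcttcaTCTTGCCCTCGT

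The first RPS9 probe had log2 signals of 8.35 to 8.84 over the 12 arrays, relative to the 75th percentile of each array, the scale used for every signal below. The second, on the other strand, had 0.41 to 0.64 and was above background on all 12 arrays. RPS9 values below are those of the first probe.

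RPS16, also of the small subunit, was covered by probe pairs at the same position that differ in a single base. The pair below differs by A21G, counted from the 5′ end of the first probe, with that base in capitals.

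RPS16 first probe: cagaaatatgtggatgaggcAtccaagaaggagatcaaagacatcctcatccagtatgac
RPS16 second probe: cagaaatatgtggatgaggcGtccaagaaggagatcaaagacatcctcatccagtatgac

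The first RPS16 probe ran from 5.36 to 5.95 and the second from 4.82 to 5.37. Against the controls their changes were 0.07 and 0.05 on day 3 and -0.03 for both on day 5, each less than its standard error of 0.19 or 0.18. How far each probe binds RNA of the other sequence was not tested, so values of RPS16 and of other members with processed copies may combine several loci.

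No ribosomal protein gene passed the test on any day. Against the controls, 0 of 32 members were called on day 3, on day 5 and on day 7 (limma, two-sided, Benjamini-Hochberg adjusted p below 0.05 over all 26433 tested probes), while 6.95%, 2.13% and 2.56% of all 7371 genes were. None of the 107 member probes was called either. At an unadjusted p below 0.05 there were 1 member on day 3, 0 on day 5 and 2 on day 7, or 3.12%, 0% and 6.25%, against 21.8%, 14.8% and 19.4% of all genes. The test over all 3 days together called 0 members against 3.31% of the genes, and the mean of the days against the controls 0 against 7.6%.

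The sizes of the changes were small. The median log2 change of the members was 0.08 on day 3, 0.16 on day 5 and 0.19 on day 7, against 0.00, 0.02 and 0.03 over all genes, with 22, 25 and 24 of 32 members above 0, against 49.5%, 53.3% and 54.1% of all genes. With scaling to the array median the member medians were 0.15, 0.18 and 0.26, against 0.06, 0.04 and 0.10 over all genes. With scaling to the median of probes above background on all arrays they were 0.07, 0.14 and 0.16. Quantile normalization between arrays, which can remove a shift that bright genes share, gave -0.02, 0.00 and -0.04. The direction of the members as a group thus depended on the scaling. Every member's change lay within 0.5 of 0 on day 3 and on day 7, and 31 of 32 did on day 5. The 95% interval of a member's change had a median half-width of 0.43 and lay within 1 log2 unit, a 2-fold change, of 0 for 31 of 32 members on each day. The exception was RPL22L1, with intervals up to 1.31, 1.52 and 1.37. Changes of less than about 0.29 to 0.88 in log2, the range of half-widths, were thus not resolved for single members in this fit. These half-widths are before adjustment, so the adjusted test needed larger changes. The fit with slide as a block had a smaller median standard error, 0.14 against 0.20.

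**Figure D1:**
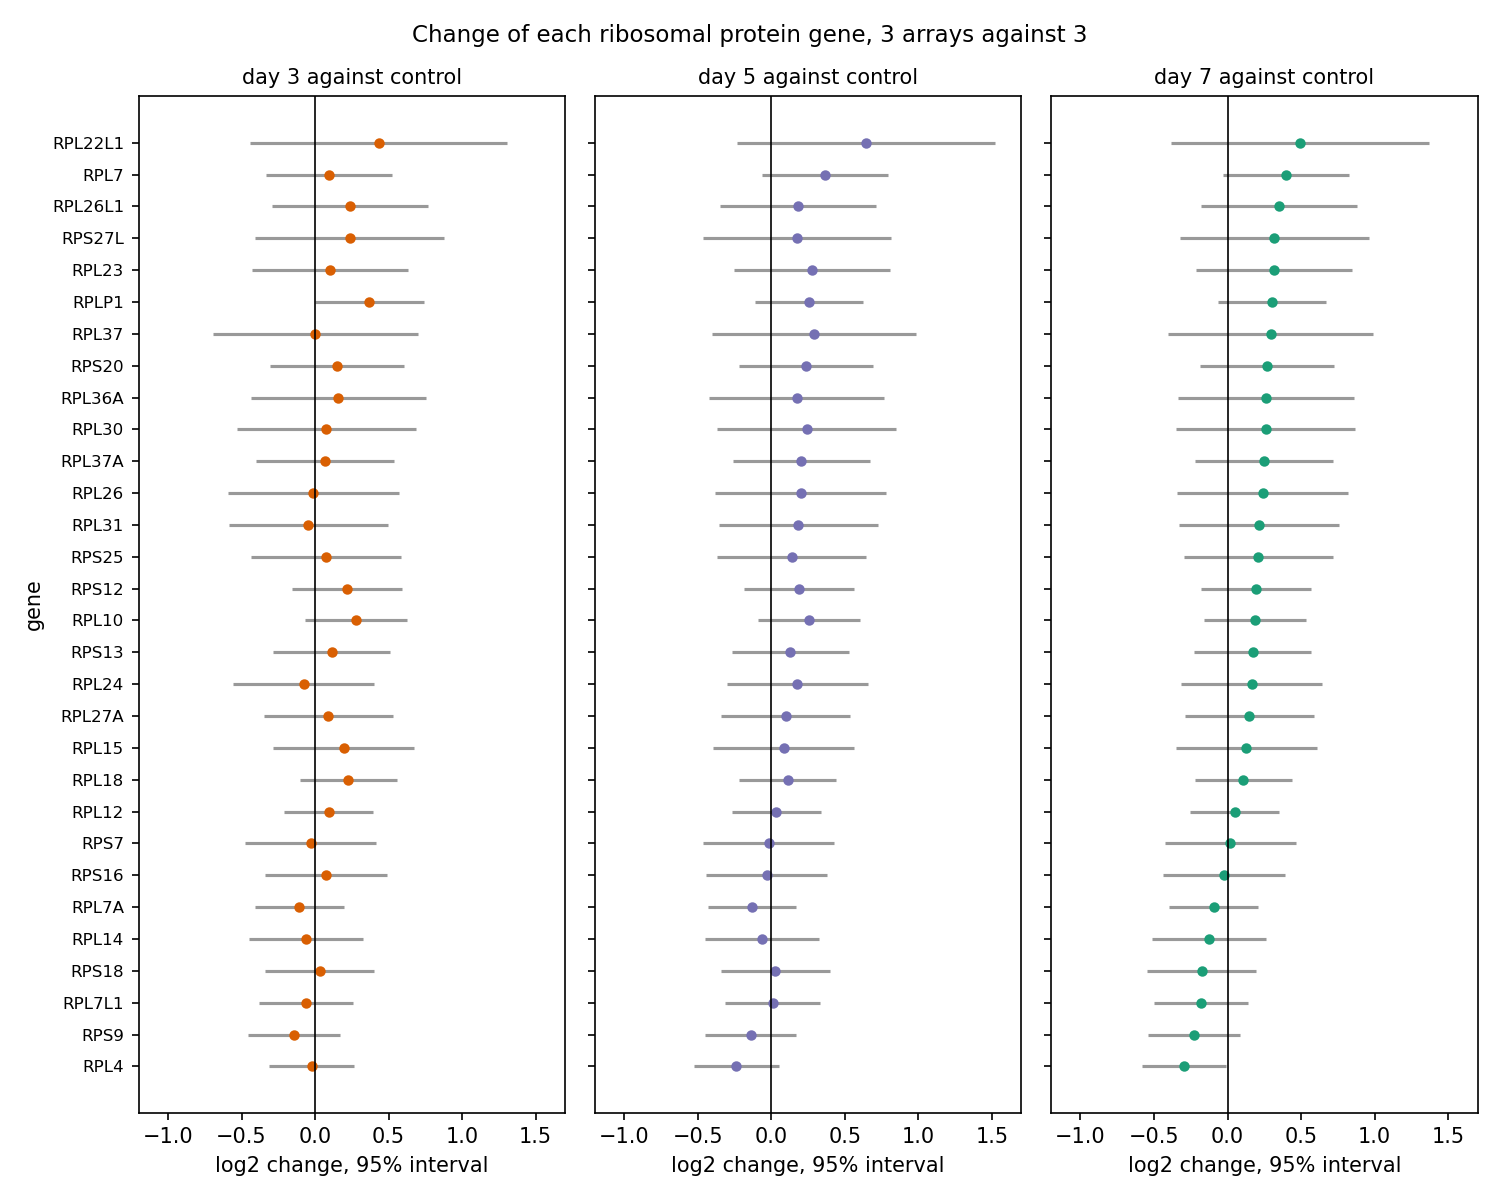
Log2 change of 30 of the 32 ribosomal protein genes on day 3, day 5 and day 7 against the controls, with 95% intervals from limma (3 arrays against 3), ordered by day 7. The intervals, before adjustment, include 0 for the genes drawn, except those of RPLP1 on day 3 and of RPL4 on day 7, and the interval of RPL22L1 is the widest, with a half-width of 0.88.

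RPLP1 had the smallest p on day 3. Its signals were 9.37, 9.55 and 9.90 in the controls, 10.06, 9.87 and 9.99 on day 3, 9.76, 9.74 and 10.08 on day 5, and 9.81, 9.90 and 10.02 on day 7, in the order of slides 1, 2 and 3. The control on slide 3 lay above 1 of the day 3 arrays, so the groups overlapped. The change was 0.37 ± 0.17 (SE) on day 3, or 1.29-fold, with an unadjusted p of 0.0497 and an adjusted p of 0.232 in limma. It was higher on day 3 than on the control of the same slide on 3 of 3 slides, by 0.69, 0.32 and 0.09. On days 5 and 7 the values were 0.26 and 0.30. With normexp background correction and quantile normalization the day 3 change was 0.33 and passed, with an adjusted p of 0.0482 in limma.

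RPL4 signals were 6.89, 6.98 and 6.93 in the controls, 6.99, 6.75 and 7.0 on day 3, 6.62, 6.64 and 6.84 on day 5, and 6.62, 6.65 and 6.65 on day 7. Both later days lay below every control, with differences on day 7 of -0.28, -0.33 and -0.28 on the 3 slides. The day 7 change was -0.30 ± 0.13 (SE), an unadjusted p of 0.0452 and an adjusted p of 0.27 in limma. RPS9 on day 7 was at 8.38, 8.40 and 8.43, below the controls at 8.50, 8.55 and 8.84, with a change of -0.23 and an adjusted p of 0.435 in limma. With normexp background correction and quantile normalization the day 7 changes of RPL4 and RPS9 were -0.51 and -0.41, and both passed (limma adjusted p = 0.0252 and 0.0472). With the remaining alternatives that were run, no member was called between a day and the controls.

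Across the family, arrays that did not overlap with the controls were few. On day 7 they were lower for 3 members, RPL4 and RPS9 among them, and higher for 0, or 9.38% and 0% of the members against 11.1% and 12.2% of all genes. On day 5 they were lower for 1, RPL4, and higher for 0, or 3.12% and 0% against 6.81% and 10.2%. On day 3 they were lower for 0 and higher for 0, against 11.4% and 13.8%. RPL4 codes for a protein that lines the peptide exit tunnel of the large subunit.

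**Figure D2:**
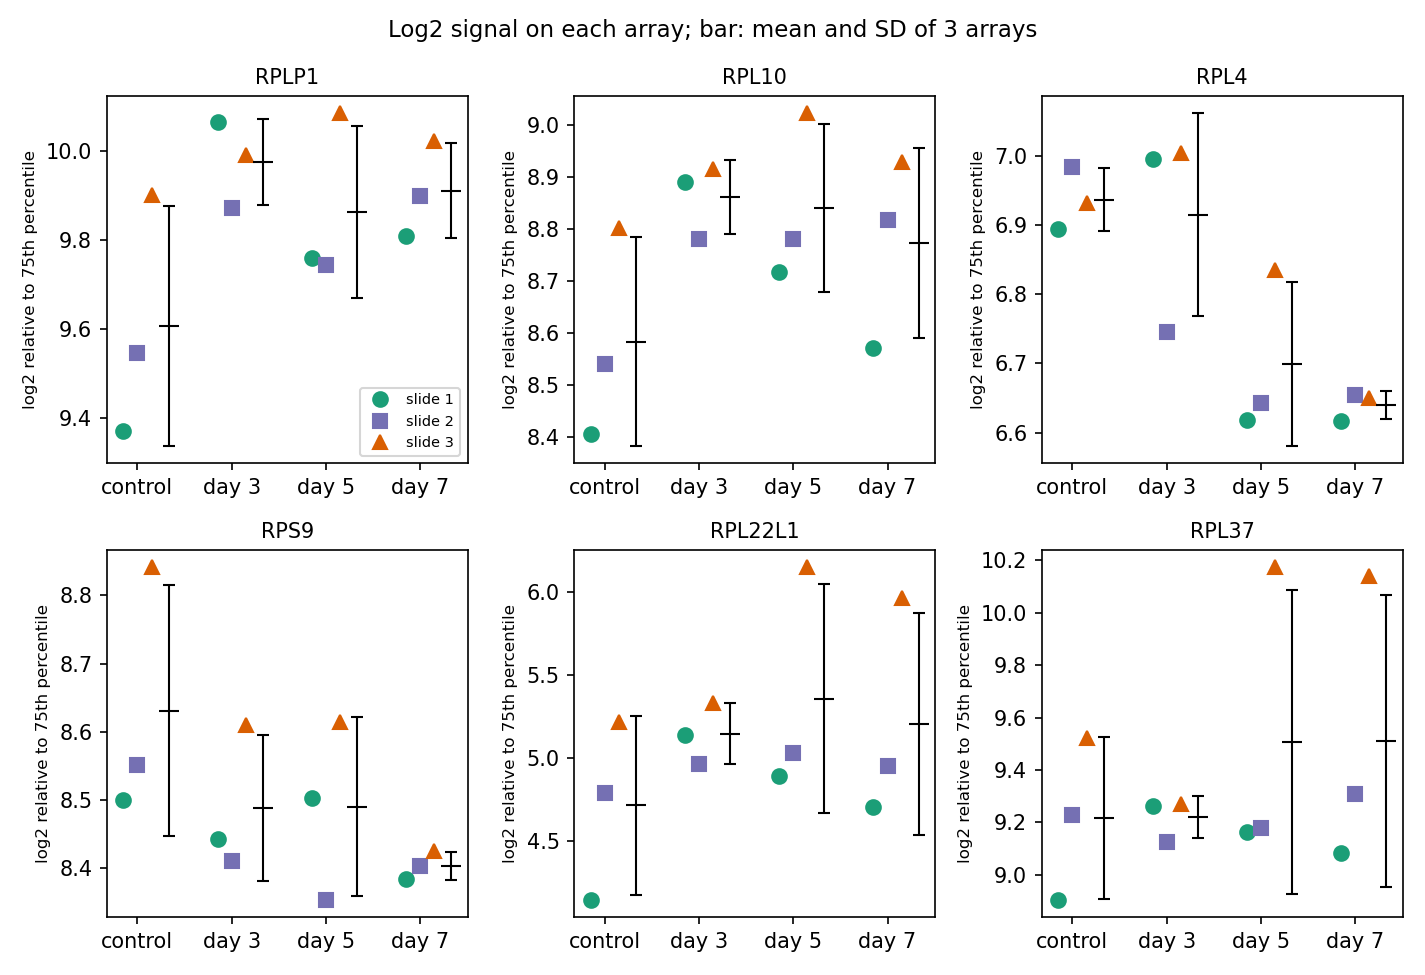
Log2 signal, relative to the array's 75th percentile, of RPLP1, RPL10, RPL4, RPS9, RPL22L1 and RPL37 on each of the 12 arrays, by group, with symbols and colours for slides 1, 2 and 3 and bars for the mean and SD of 3 arrays. The day 7 arrays of RPL4 and RPS9 lie below the controls, while RPL22L1 and RPL37 are highest on slide 3 on days 5 and 7. Each panel has its own vertical axis, which does not start at 0.

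Other members of known role stayed between these values. RPL10, which joins the large subunit late in its assembly, had group means ± SD (n = 3) of 8.58 ± 0.20 in the controls, 8.86 ± 0.07 on day 3, 8.84 ± 0.16 on day 5 and 8.77 ± 0.18 on day 7. It was above the control of its slide on all 3 slides on every day, by 0.11 to 0.48, with a day 3 change of 0.28 and an adjusted p of 0.345 in limma. RPL26, which also binds the mRNA of the tumour suppressor p53, had 8.89 ± 0.29, 8.87 ± 0.06, 9.09 ± 0.45 and 9.13 ± 0.45 in the same order of groups. RPS25, which internal ribosome entry sites of several viruses need, had 8.78 ± 0.33, 8.85 ± 0.08, 8.92 ± 0.37 and 8.99 ± 0.31. For RPL26 and RPS25 the SD on days 5 and 7 exceeded the difference from the controls. RPL7A and RPL24 were the lowest on day 3 after RPS9, at -0.11 and -0.08, and both overlapped with the controls. RPL36A had changes of 0.16, 0.17 and 0.26 on days 3, 5 and 7.

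Among the paralogs, RPL22L1 had the largest changes and the largest errors. RPL7L1 had the smallest errors of them, with an SE of 0.15 against a member median of 0.20. RPL22L1, the paralog of RPL22, had the highest change on every day, 0.43, 0.64 and 0.49 (SE 0.40 each). Its signals were 4.14, 4.79 and 5.22 in the controls, 5.14, 4.97 and 5.33 on day 3, 4.89, 5.03 and 6.15 on day 5, and 4.70, 4.95 and 5.97 on day 7. Each day lay above the control of the same slide on 3 of 3 slides, but the control of slide 3 lay above the day 5 and day 7 arrays of slides 1 and 2. The second RPL22L1 probe gave 0.28, 0.50 and 0.42. On day 5 RPL22L1 had an adjusted p of 0.52 in limma. RPS27L, the paralog of RPS27 and a known target of p53, had 0.24, 0.18 and 0.32, and RPL26L1, the paralog of RPL26, 0.24, 0.18 and 0.35. RPL7L1, the paralog of RPL7 that acts in large-subunit assembly, had -0.06, 0.01 and -0.18, against 0.10, 0.37 and 0.39 for the RPL7-like gene taken as RPL7, whose other probe gave -0.03 on day 7. None of these passed.

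The 17 large-subunit genes had medians of 0.08, 0.18 and 0.19 on days 3, 5 and 7, and the 10 small-subunit genes 0.07, 0.08 and 0.09. On day 7, 14 of 17 large-subunit and 6 of 10 small-subunit genes were above 0. The difference between the subunits was not tested. Where a member had several probes, all had the same sign for 12 of 17 genes on day 3, 13 on day 5 and 14 on day 7.

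Between the days no member was called. On day 5 against day 3, on day 7 against day 3 and on day 7 against day 5 there were 0 of 32 members, while 0.0136%, 0.122% and 0% of all genes passed (limma), and 0 members had an unadjusted p below 0.05 in any of the 3, against 7.57%, 11.8% and 1.78% of the genes. Member medians were 0.01, 0.06 and 0.03. RPL4 had the lowest value on day 5 against day 3, -0.22, and -0.27 on day 7 against day 3, and the highest were 0.29 for RPL37 on day 5 and 0.30 for the gene taken as RPL7 on day 7, again against day 3.

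For 22 of 32 members (68.8%) the means of the 3 slides spanned a wider range than the means of the 4 groups, against 29.5% of all genes. The median ranges of the members were 0.37 for slides and 0.25 for groups, and those of all genes 0.27 and 0.40. A slide mean is over 4 arrays and a group mean over 3, and this difference from all genes was not tested. Slide 3 was the high one. In the controls the median member was 0.43 higher on slide 3 than on the mean of slides 1 and 2, on day 5 0.48 and on day 7 0.38, but on day 3 only 0.08. Over all genes the medians were 0.10, 0.01 and -0.03 in the controls, on day 5 and on day 7, and 0.01 on day 3. Of the 32 members, 29 lay among the 737 genes with the brightest probes, 10% of the genes, and the exceptions were RPL7L1, RPL7 and RPL26L1. Those 737 genes had medians of 0.32, 0.14, 0.19 and 0.04 in the controls and on days 3, 5 and 7.

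**Figure D3:**
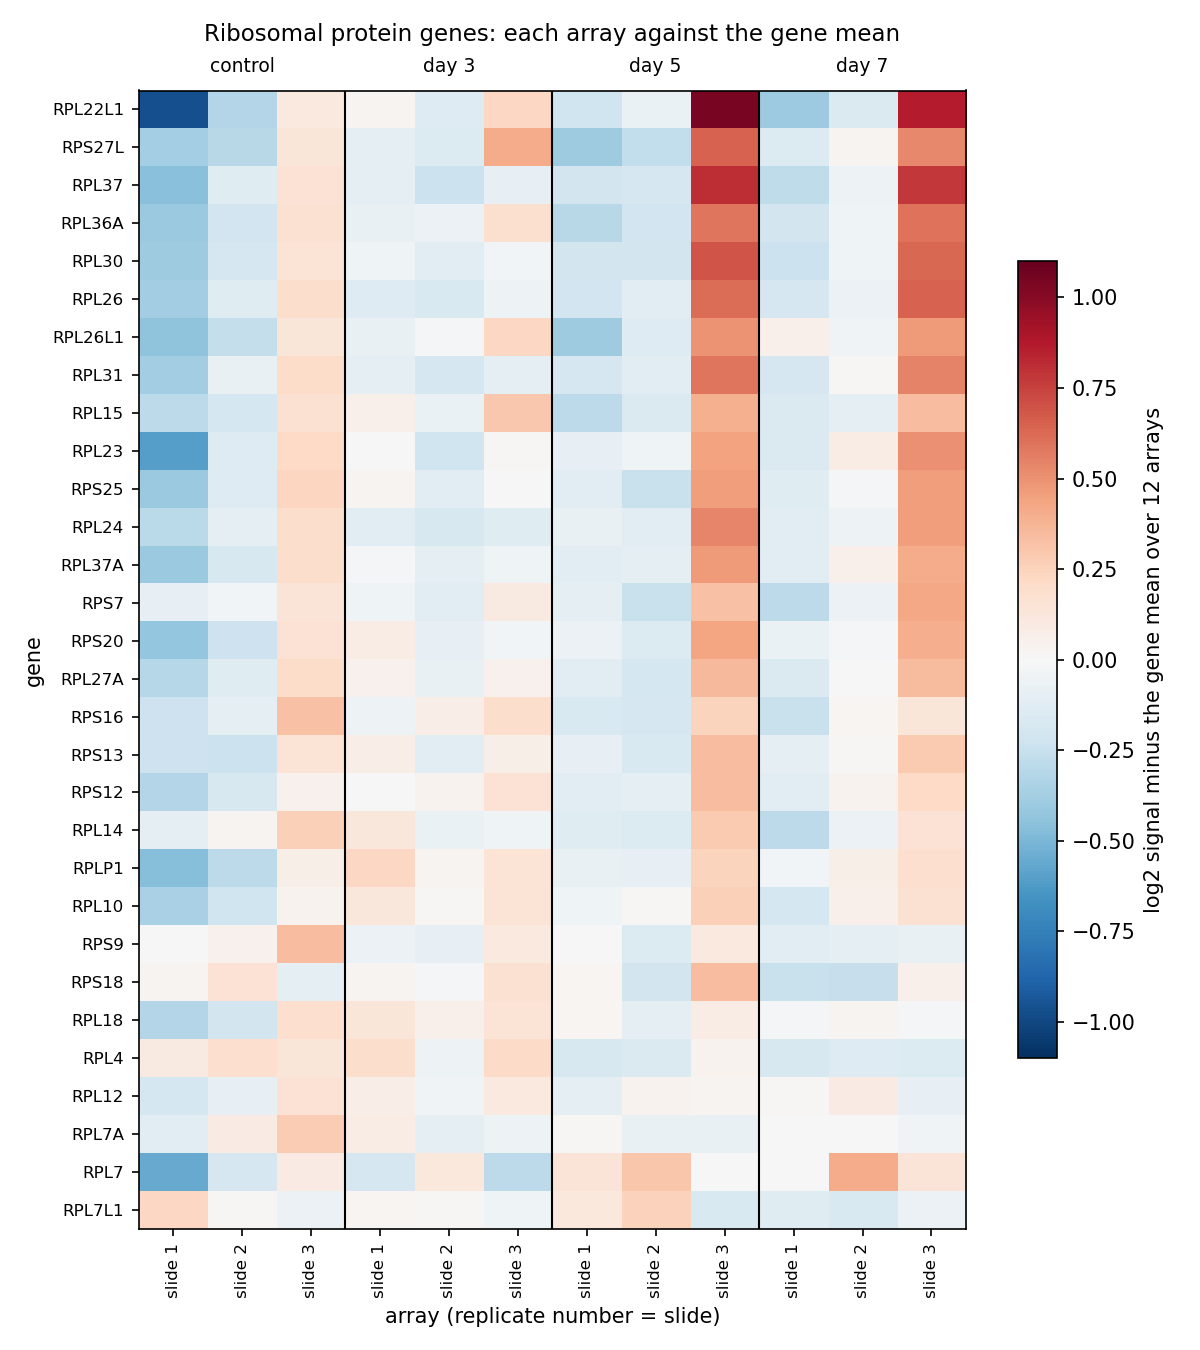
Log2 signal of 30 of the 32 ribosomal protein genes on each of the 12 arrays minus the gene's mean over the arrays, with genes ordered by their slide 3 shift and arrays by group and slide. Slide 3 is the highest array for most genes in the controls, on day 5 and on day 7, and slide 1 of the controls is the lowest, with a median deviation of -0.34 over all 32.

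In the fit with slide as a term, slide 3 was higher than the mean of slides 1 and 2 for 30 of 32 members. Their median was 0.35, against 0.01 over all genes and 0.16 over the 737 brightest. Among the related lists described below, medians for slide 3 ran from -0.17 for the p53 response genes to 0.28 for the mitochondrial ribosomal proteins. The share called among the 737 brightest genes is not given here. 8 of 32 members passed (limma, adjusted p below 0.05), all higher, or 25% against 3.87% of all genes called higher, and 0 lower against 1.79%. They were RPL22L1 (0.84 ± 0.17, SE), RPS27L (0.64 ± 0.10), RPL37 (0.62 ± 0.16), RPL36A (0.57 ± 0.11), RPL30 (0.54 ± 0.14), RPL26 (0.52 ± 0.12), RPL26L1 (0.50 ± 0.10) and RPL15 (0.45 ± 0.09). The adjusted p was from 0.0182 for RPS27L to 0.0497 for RPL30. Slide 2 against slide 1 called 0 members and 0 genes. This slide comparison was added after the data were seen. The number of calls was not stable, at 0 to 14 with 1 array left out. It was 0 without day 5 replicate 1, 2 or 3 or without day 7 replicate 1. It was 1 without control replicate 3, day 3 replicate 2 or day 7 replicate 3. It was 4 or 5 without control replicate 1 or 2 or day 7 replicate 2, 10 without day 3 replicate 1, and 14 without day 3 replicate 3. Where leaving out 1 array gave 0 calls, 0.0136% of all genes were called in either direction, against 5.66% in the main fit. With any other array left out, 1.63% to 4.07% of all genes were called. The median of the members stayed between 0.30 and 0.41. With quantile normalization, which can remove a shift that bright genes share, it fell to 0.08 with 0 calls.

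RPL37, a large-subunit protein with a zinc-binding fold, showed the pattern plainly. Its signals on slides 1, 2 and 3 were 8.90, 9.23 and 9.52 in the controls, 9.26, 9.13 and 9.27 on day 3, 9.16, 9.18 and 10.17 on day 5, and 9.08, 9.31 and 10.14 on day 7. The slide 3 arrays of days 5 and 7 stood 1.0 and 0.95 above the mean of the other slides, against 0.07 on day 3. All 10 RPL37 probes had a slide 3 shift between 0.56 and 0.68. Both RPL22L1 probes had 0.84 and 0.88. At the low end were RPL7L1 (-0.13), RPL7 (-0.02), RPL7A (0.04), RPL12 (0.08) and RPL4 (0.09).

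**Figure D4:**
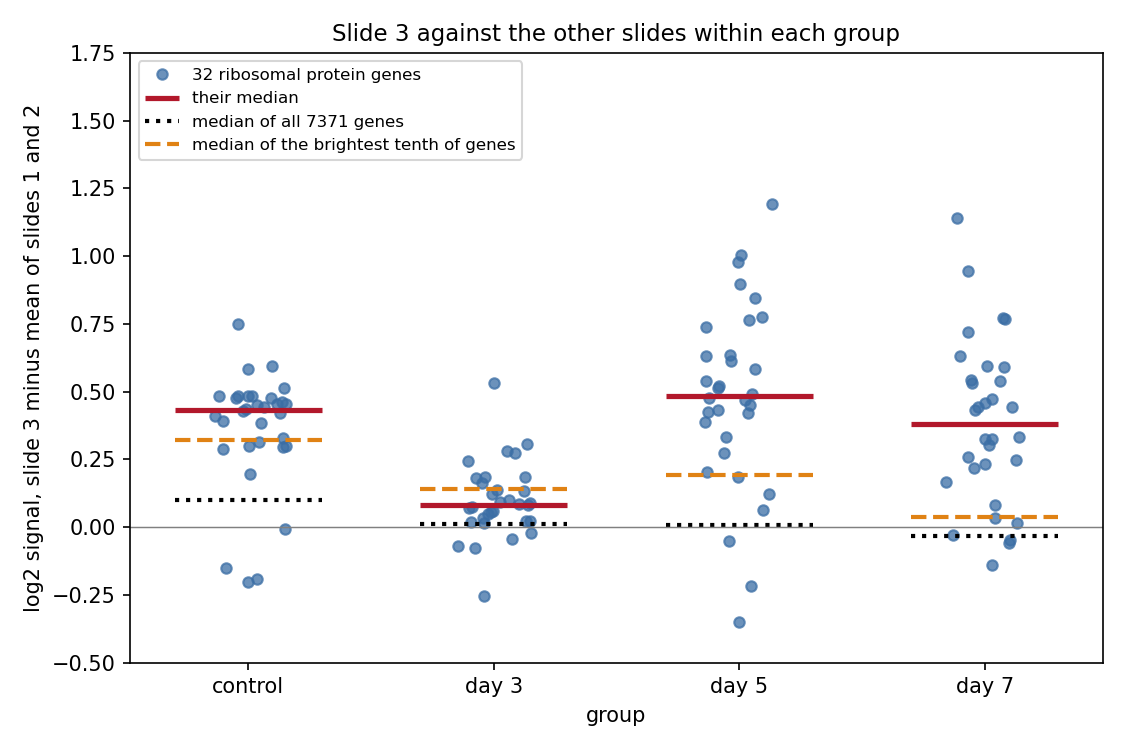
Log2 signal on slide 3 minus the mean of slides 1 and 2 within each group for the 32 ribosomal protein genes (points, spread sideways at random), with their median, the median of all 7371 genes and that of the 737 brightest genes (10%). The member medians are 0.43 in the controls, 0.08 on day 3, 0.48 on day 5 and 0.38 on day 7.

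The share of G and C in a member's probe went with this shift. Spearman's rho over the 32 members was -0.64, with -0.39, -0.12, -0.70 and -0.65 in the controls and on days 3, 5 and 7, against -0.05 over all 7371 genes and -0.17 over the 737 brightest, as a description of genes that share the same 12 arrays. The 5 members with 50% or more G and C, RPLP1, RPL18, RPS9 and RPL7A among them, had shifts of 0.04 to 0.30, and the 27 with less had -0.13 to 0.84. Composition alone did not order them, as probes of like composition show, with G and C in capitals.

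RPL37: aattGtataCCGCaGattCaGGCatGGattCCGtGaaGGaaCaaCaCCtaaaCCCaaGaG
RPL26: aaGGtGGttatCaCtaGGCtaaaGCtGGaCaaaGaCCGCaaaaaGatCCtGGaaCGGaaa
RPL12: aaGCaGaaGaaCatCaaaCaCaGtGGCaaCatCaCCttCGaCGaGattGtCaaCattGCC
RPL22L1 second probe: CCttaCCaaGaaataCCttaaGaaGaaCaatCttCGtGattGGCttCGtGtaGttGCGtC

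The probes of RPL37, RPL26 and RPL12 each hold 45% G and C, and their shifts were 0.62, 0.52 and 0.08. The RPL22L1 probe shown holds 41.7% and had 0.88. The polyadenylation signal AATAAA, searched on the probe strand, was in the probes of 8 of 32 members (25%) against 2.69% of all genes. Where the probes lie in their mRNAs was not examined. The median shift was 0.39 for these 8 and 0.30 for the other 24. 

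**Figure D5:**
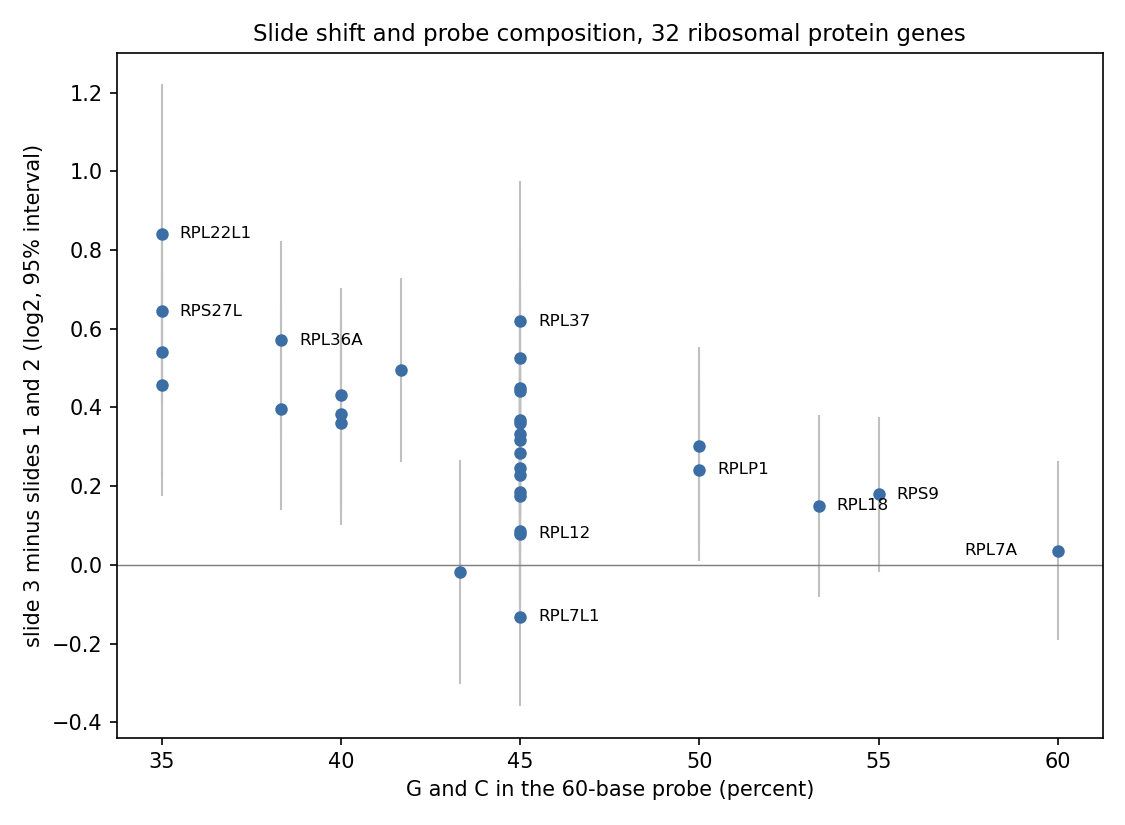
Slide 3 minus the mean of slides 1 and 2 (log2, limma estimate with 95% interval) against the percent of G and C in the 60-base probe, for the 32 ribosomal protein genes. RPL22L1 at 35% has the largest shift, 0.84, and RPL7A at 60% has 0.04, while genes at 45% range from -0.13 to 0.62.

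Single arrays from each slide moved the medians of the day comparisons. The day 5 median of the members, 0.16, became -0.06 without day 5 replicate 3 and 0.31 without control replicate 3. The day 7 median, 0.19, became 0.01 without day 7 replicate 3 and 0.30 without control replicate 3. The day 3 median, 0.08, became 0.23 without control replicate 3. Without control replicate 1, on slide 1, the medians of days 3, 5 and 7 were -0.03, 0.05 and 0.07. The day 5 median was 0.24 without day 5 replicate 1 and 0.25 without day 5 replicate 2. On slides 1 and 2 alone, an alternative chosen after the data were seen, the member medians were 0.21, 0.09 and 0.16. Over all genes they were 0.04, 0.09 and 0.09. In that setting 0 members were called on each day, against 350, 105 and 307 of all 7371 genes. Within slides, day 3 was above the control for 29 of 32 members on slide 1, 20 on slide 2 and 12 on slide 3. For day 5 these counts were 25, 17 and 24, and for day 7 24, 24 and 23. On slide 2 the member medians were 0.06, 0.02 and 0.14 on days 3, 5 and 7, below those of all genes, 0.12, 0.16 and 0.16. On slide 1 they were 0.33, 0.18 and 0.19 against -0.02, 0.02 and 0.01 over all genes. On slide 3 they were -0.11, 0.22 and 0.17 against -0.08, -0.07 and -0.08.

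A further 14 tested probes were described by the array as a cytosolic ribosomal protein, under 7 names, but carried no member symbol, and were not counted as members. Of these, 7 probes are described as L17, the older name through which RPL23 was assigned, so they may measure RPL23. Their brightest probe had 0.10, 0.26 and 0.23 on days 3, 5 and 7. An L5-like gene is also in this set and was not taken as RPL5. None of the 7 was called on any day, with medians of 0.08, 0.07 and 0.13, and the highest was a gene described as S26-like, at 0.26, 0.36 and 0.35. The slide 3 shifts of the 7 ran from 0.11 to 0.48.

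The genes that build and run ribosomes were set beside the members. For the counts in all lists and markers below, 6.95%, 2.13% and 2.56% of all genes were called on days 3, 5 and 7. For the mean of the days the share was 7.6%. A list with 1 or 2 called genes is not read as a result about that list. Of 8 measured elongation factors of 11 in the list, 0 were called on any day, with medians of 0.01, -0.02 and -0.07. EEF1A1, which brings aminoacyl-tRNA to the ribosome and whose mRNA also carries a terminal oligopyrimidine tract, changed by -0.01, 0.03 and -0.08, none of which passed. Of 32 measured initiation factors of 44, 2 rose on day 3 and 0 on day 5 or 7: EIF4A1, the helicase that unwinds mRNA leaders, by 0.89 ± 0.17 (SE, limma adjusted p = 0.0108), and EIF4E2, a cap-binding protein, by 0.52 ± 0.14 (limma adjusted p = 0.0446). The medians of that list were 0.09, 0.07 and 0.12. Among 36 measured genes of ribosome assembly and rRNA processing of 52, 1 rose, DDX21, a nucleolar helicase, by 0.69 on day 3 (limma adjusted p = 0.0319), and 0 on the other days, with medians of 0.13, 0.03 and 0.15. NPM1, a nucleolar chaperone, changed by 0.10, 0.22 and 0.14, none of which passed. Of 9 measured genes of RNA polymerase I and its factors of 18, 0 were called, with medians of -0.24, -0.17 and -0.12.

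Of 9 measured ribosome partners of 19, 1 rose on day 3, SEC61A1, the channel through which new proteins enter the endoplasmic reticulum, by 0.77 (limma adjusted p = 0.015), with list medians of 0.16, 0.07 and 0.13. FAU, whose product is cleaved to a small-subunit protein, changed by 0.07, 0.07 and 0.13, none of which passed. Of 10 measured growth-signalling genes of 22, 0 were called, with medians of 0.04, -0.01 and -0.11, and MYC, which drives ribosome production, had -0.30, -0.40 and -0.41, not passing. Among 38 measured mitochondrial ribosomal proteins of 40, 1 rose, MRPL17, by 1.79 ± 0.37 (SE) on day 3 (limma adjusted p = 0.0172), and 0 on days 5 and 7, with medians of 0.15, 0.09 and 0.14. Free ribosomal proteins can bind MDM2 and so stabilise p53, and 5 of 8 genes of that response were measured. GADD45A rose on all 3 days, by 1.32, 1.46 and 1.15 (limma adjusted p = 0.0013, 0.00196 and 0.00697), and CDKN1A and BAX rose on day 3, by 1.68 and 0.79 (limma adjusted p = 0.0121 and 0.0213). GADD45A, CDKN1A and BAX are targets of p53 that respond to many kinds of stress. The medians of these 5 genes were 1.03, 0.29 and 0.24. RPS27L, of the same response, did not pass, as given above. None of these lists had a called fall on a day against the controls.

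The mRNAs of cell type markers in the vessel wall were set beside the members. Of 7 markers of dividing cells, 6 were measured and 6, 5 and 5 rose on days 3, 5 and 7, and their summed signal went from 0.681 to 1.35 in the controls to 4.17 to 6.52 on day 3 and to 2.33 to 4.05 over days 5 and 7, on the linear scale where 1 is the array's 75th percentile. Of 8 macrophage markers, 4 were measured and 3 rose on each day, with sums of 4.27 to 6.87 in the controls and 13.0 to 21.6 over the days. Of 9 contractile smooth muscle markers, 8 were measured and 0 passed on a single day, with sums of 646 to 754 in the controls and 431 to 599 over the days. For the mean of the days against the controls 1 of them fell, TAGLN, an actin-binding protein of contractile cells, by 0.68 (limma adjusted p = 0.0208). Of 6 measured fibroblast and leptomeningeal markers of 8, 3 rose and 2 fell on day 3, 1 rose on day 5 and 3 rose on day 7. Of 4 measured lymphocyte markers of 8, 1 rose on day 3, CD79B, and 0 later. Of 5 endothelial markers of 7, 4 neutrophil markers of 6 and 3 red blood cell markers of 6 that were measured, 0 were called on any day. Of 9 neural and glial markers, 4 were on the array by name and 0 reached the filter. In a whole vessel fewer cells of a type and less RNA per cell cannot be told apart, and the part of these shifts in the ribosomal protein values was not tested.

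On array quality, control replicate 2 was the weakest, with 50.1% of spots well above background and 169 spots marked as outliers. The range elsewhere was 58.2% to 64.0% and 1 to 16. The array weights of limma were lowest on control replicates 2 and 3 and on the slide 3 arrays of days 3 and 5, at 0.356 to 0.563.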

How the data were processed

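Scanner output of 12 single-colour arrays came from Agilent's Feature Extraction software, version 9.5.1.1, per the submitters' processing notes. The deposited processed signal is an intensity, background-subtracted within its array and not scaled between arrays, per the file headers. Spot flags (well above background, outlier, saturated) are deposited as other values, 0 or 1. The authors' value table, an intensity on a linear scale with equal column medians (27.0), served as an alternative, as did raw mean and background intensity.

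Signals were taken as log2 minus the array's 75th percentile of non-control spots, with outlier-flagged spots missing and the spots of a probe averaged. Probes above background on all 3 arrays of a group (26433 of 43623) were fitted with limma 3.58.1 (R 4.3.3), 12 arrays in 1 fit, 7 contrasts, Benjamini-Hochberg over all tested probes. A gene is its probe with the highest mean. Names came from the arrays and a RefSeq table of assembly mOryCun1.1, used for symbols alone. A single gene was found for 22455 probes, several for 29 and none for 21139. No coordinates are given, since the arrays name no build. The number of arrays, 3 a group, limits the precision.

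Named with values were called members, the 3 highest and 3 lowest per day, a fixed list of members and paralogs, and up to 3 called genes per related list and contrast; RPL12, RPL15, RPL18, RPL30, RPS16, RPL37 in the slide comparison, EEF1A1, FAU, MYC and NPM1 were chosen after their values were seen. The values of some members are not reported here, though counts and medians include them. Members and lists were chosen with earlier results of these data known. The fit was tested on simulated data. Replicate numbers are slides, and slide was fitted as a block as an alternative. Same-slide deviations correlated with a mean of 0.11 (-0.15 to 0.39, over 0.1 in 10 of 18 pairs of arrays), against -0.05 for different slides (over 0.1 in 2 of 36). Since not every same-slide pair was over 0.1, the fit without the block stayed the main one.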

Additional observations from a re-analysis of the deposited data

Results flagged for a closer look

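No member met a criterion for a closer look: groups of 3 arrays are too small for the test of a sample far from the others, and no member differed between days. Among the genes set beside the members, BUB1B, a marker of dividing cells, was lower on day 7 than on day 3, with a log2 change of -1.61 that passed the test between these days (limma), so its effect against the controls differed between time points.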

How the results depend on the processing

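The counts of called members were 0 under the alternatives run for the day comparisons, with 1 exception. With normexp background and quantile normalization, 1 member was called on day 3, 3 on day 7, 3 for the mean of the days and 1 by the F test. Of all 7371 genes, 467, 153 and 508 were called in that setting on day 3, on day 7 and for the mean of the days. The member medians moved with that setting to 0.025 on day 5, 0.015 on day 7 and 0.0028 for the mean of the days, with quantile normalization to 0.0026, -0.041 and 0.0020, and with the authors' value table to -0.0022, -0.044 and 0.00068. On slides 1 and 2 only the day 3 median was 0.21. With only the 3 genes whose array name is the member symbol it was 0.22, and -0.090 for day 7 against day 3. With 1 array left out, medians ran from -0.032 to 0.23 for day 3 against control, -0.058 to 0.31 for day 5 against control, -0.14 to 0.10 for day 5 against day 3, 0.014 to 0.30 for day 7 against control, -0.090 to 0.15 for day 7 against day 3, -0.11 to 0.20 for day 7 against day 5, and 0.023 to 0.30 for the mean of the 3 days against control. The slide as a replicate block left the medians at 0.08, 0.16 and 0.19 and called 0 members, with 2, 1 and 5 members at an unadjusted p below 0.05, and lowered the median standard error from 0.20 to 0.14. Without the block 21.8%, 14.8% and 19.4% of all genes had such a p, and their share with the block is not given here. Over all genes the block called 667, 188 and 285 on days 3, 5 and 7, against 512, 157 and 189 without it. For slide 3 against slides 1 and 2, calls were 4 with normexp and quantile (3 higher, and RPL7A lower), 0 with quantile and 0 with the authors' value table. They were 17 with scaling to the array median, 6 with scaling to the median of probes above background on all arrays and 16 with only those probes. With 1 array left out they were 0 to 14. The median was 0.10 with normexp and quantile and 0.077 with quantile normalization or the authors' value table. It was 0.39 with scaling to the array median, 0.33 with scaling to the median of probes above background, and 0.30 to 0.41 with 1 array left out. Of the 7371 genes, the same slide comparison called 6.77% with normexp and quantile, 3.38% with quantile and 3.08% with the authors' value table. It called 7.34% with scaling to the array median, 5.67% with scaling to the median of probes above background on all arrays and 8.26% with only those probes. With 1 array left out it called 0.0136% to 4.07%. The causes were not tested.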
